A study of Mus musculus with 6 samples.

Results

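The genes described are the inducible feedback inhibitors of the ERK pathway: the MAP kinase phosphatase genes Dusp1, Dusp4, Dusp5 and Dusp6, the Sprouty genes Spry1, Spry2 and Spry4, and the Sprouty-related genes Spred1 and Spred2. They were taken by gene symbol from a table of 53342 genes, which holds all 9 of them once each. Expression had been measured by RNA sequencing of dental pulp from 3 WT and 3 Mmp13-/- mice aged 3 months. All animals were on a C57BL/6 background and, according to the methods, male, and the Mmp13-/- mice lacked the collagenase gene Mmp13 in the whole animal, with no Cre driver. The labels name molars and RNA from a column kit, and the methods name incisors and TRIzol. In the sample titles molars are named for WT only, and the Mmp13-/- titles name no tooth. Each library is a separate biological sample, numbered 2, 4 and 5 in WT and 1, 2 and 6 in Mmp13-/-.

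In the ERK pathway a growth factor receptor activates Ras through adaptor proteins, and Ras activates the kinases Raf, MEK and ERK in turn. Active ERK switches on genes whose products then turn the pathway down. Dual-specificity phosphatases remove the phosphates from ERK itself. Sprouty proteins act between the receptor and Raf, and Spred proteins restrain Ras with the help of neurofibromin. In teeth this circuit is best known downstream of fibroblast growth factors, where Sprouty genes help to set the number and the renewal of teeth.

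The targeted gene was checked first. Mmp13 had estimated counts of 1069, 1139 and 827 in the WT libraries 2, 4 and 5. In the Mmp13-/- libraries 1, 2 and 6 they were 10.2, 32.9 and 40.4. Library totals ranged from 28442936 to 29980236 counts in WT and from 21561420 to 26547121 in Mmp13-/-. All 8 odontoblast and all 6 pulp fibroblast markers listed were detected, among them Dspp with 26077 ± 16169 (SD, n = 3) normalized counts in WT and 57066 ± 12696 (SD, n = 3) in Mmp13-/-. Normalized counts are estimated counts put on the scale of the mean library by TMM factors. The odorant and vomeronasal receptor genes, which pulp is not known to use, took 17.8 to 20.8 CPM (counts scaled by the library total) of each WT library. Their share was 308 and 356 CPM in Mmp13-/- samples 1 and 2, and sample 6 stood apart at 1197 CPM. The log2 fold change also fell with the GC content of the transcripts, with a Spearman rho of -0.58 over 16983 protein-coding genes. Genes are not independent replicates. Of the genes that passed, 47.0% were lower in Mmp13-/- under TMM factors. The share was 36.1% when upper-quartile factors were used and 30.8% for total counts. The median over all genes, a log2 fold change of 0.10, moved by 0.21 and 0.11 under these latter scalings.

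Expression of the feedback genes was lower in Mmp13-/- pulp for 8 of the 9 genes. A gene was said to fall or rise when its adjusted p was under 0.05 in edgeR's quasi-likelihood test of the 3 Mmp13-/- against the 3 WT samples, with Benjamini-Hochberg adjustment over the 24534 genes with enough counts, and all 9 genes had enough. The 8 genes were Dusp1, Dusp4, Dusp5, Dusp6, Spry1, Spry2, Spry4 and Spred2, and 5 of them fell over 2-fold: Dusp1, Dusp4, Spry1, Spry2 and Spred2. Spred1 did not pass and none rose. Among all genes tested, 51.6% passed, of which more rose (27.3%) than fell (24.3%). Those over 2-fold made up 30.1%, with 9.68% lower. The median log2 fold change of the 9 genes was -1.04. In the same 8 genes every Mmp13-/- sample lay below every WT sample, which held for 29.1% of all genes tested, and for 60.9% when either direction is counted. The libraries cannot show whether fewer cells used a gene or each cell held less of its RNA, because pulp was sequenced in bulk.

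**Figure D1:**
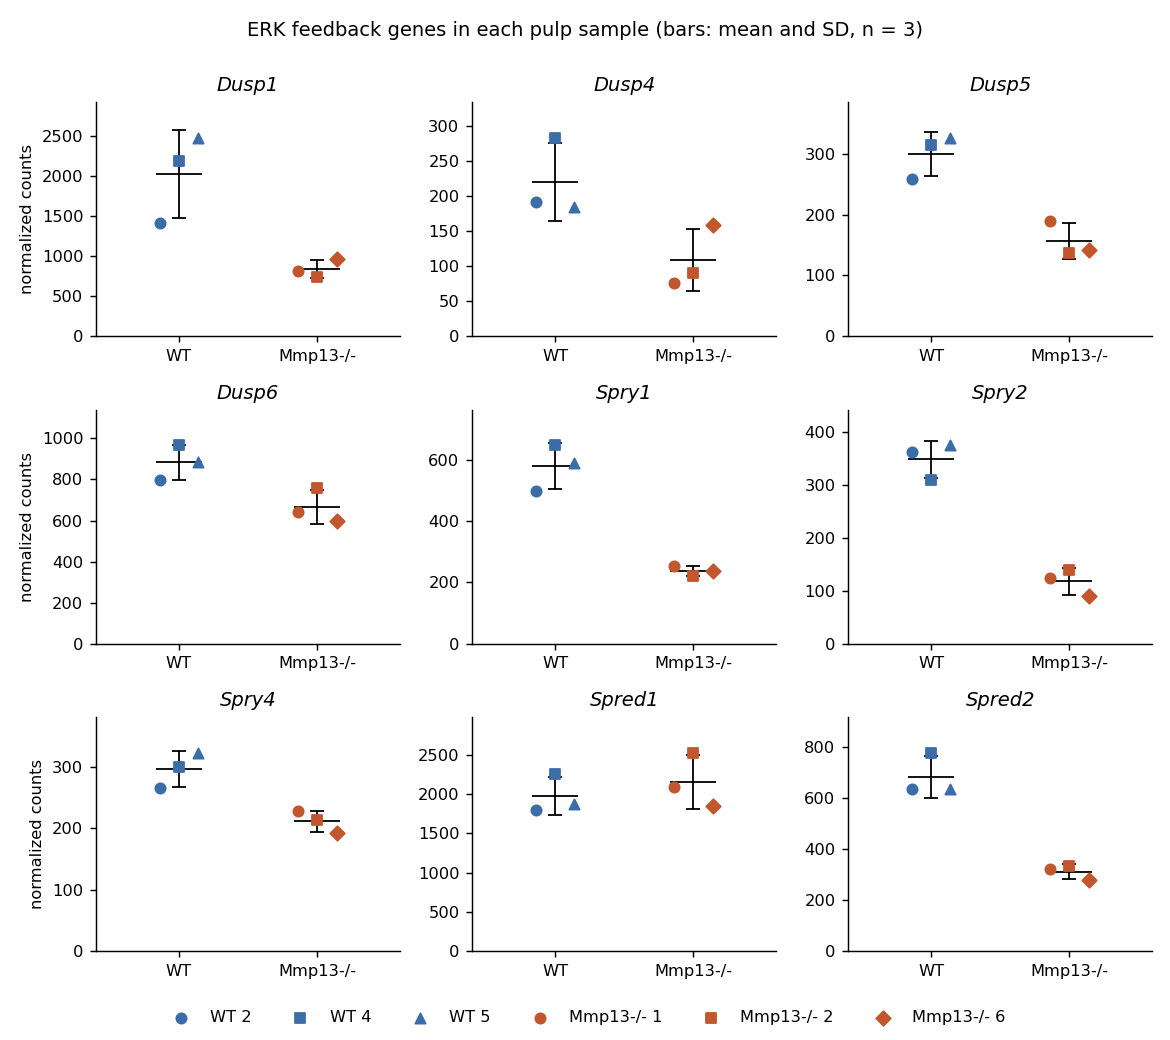
Normalized counts (vertical axes, each starting at 0) of the 9 feedback genes in the 3 WT (blue) and 3 Mmp13-/- (orange) samples, with black bars for the mean and SD. The genotypes separate in every panel other than Spred1, where WT spans 1796 to 2252 and Mmp13-/- spans 1844 to 2525.

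Dusp1 encodes a nuclear phosphatase of ERK, p38 and JNK and is an immediate early gene, induced within minutes of growth factors, stress or glucocorticoid. Its annotated span runs from 26505590 to 26562128 on chromosome 17, on the minus strand of GRCm38. That span reaches upstream of the transcription start used for its sequence window below. WT samples 2, 4 and 5 held 1414, 2187 and 2483 normalized counts of Dusp1, against 813, 741 and 964 for Mmp13-/- samples 1, 2 and 6. WT sample 2 was the lowest of its genotype and still stood above every Mmp13-/- sample. The means were 2028 ± 552 (SD, n = 3) and 839 ± 114 (SD, n = 3), so that Mmp13-/- held 41.4% of the WT level. The log2 fold change was -1.27 (standard error 0.21, 95% interval -1.74 to -0.80, adjusted p = 0.000933 from edgeR).

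Dusp4 and Dusp5 encode the other nuclear phosphatases of the group, and the product of Dusp5 acts on ERK alone. Dusp4, on chromosome 8 from 34807297 to 34819894, had 191, 283 and 184 normalized counts in WT, against 76.1, 90.1 and 158 in Mmp13-/-. Its lowest WT sample and its highest Mmp13-/- sample, sample 6, were close together, and the spread within Mmp13-/- was the widest of the 9 genes relative to the mean (40.7%). The log2 fold change of Dusp4 was -1.04 (standard error 0.29, adjusted p = 0.0133 from edgeR), and the call was lost when WT sample 4 was left out (adjusted p = 0.0518 from edgeR) and with upper-quartile factors (adjusted p = 0.08 from edgeR). Dusp5, on chromosome 19 from 53529109 to 53542431, had 259, 315 and 328 normalized counts in WT and 190, 137 and 141 in Mmp13-/-. Here Mmp13-/- sample 1 was nearest to WT. Its log2 fold change was -0.94 (standard error 0.19, 95% interval -1.37 to -0.52, adjusted p = 0.00265 from edgeR).

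Dusp6 encodes the cytoplasmic phosphatase that is specific for ERK, and its RNA is widely used as a reading of ERK activity. The gene lies on chromosome 10 from 99263231 to 99267489. WT samples held 798, 967 and 884 normalized counts, and Mmp13-/- samples 642, 761 and 600, so the highest Mmp13-/- sample was just under the lowest WT sample. The means of 883 ± 84.6 (SD, n = 3) and 667 ± 83.5 (SD, n = 3) give the smallest change among the genes that fell, a log2 fold change of -0.40 (standard error 0.15, 95% interval -0.73 to -0.07, adjusted p = 0.0433 from edgeR). Dusp6 passed in 2 of the 6 fits with 1 sample left out. The call was lost on leaving out WT sample 4 or 5 or Mmp13-/- sample 1 or 6, where the adjusted p reached 0.116 in edgeR. With upper-quartile factors its log2 fold change was -0.20 and did not pass (adjusted p = 0.204 from edgeR). Relative to the median of all genes it was -0.51 with either scaling. Total counts alone, at least 10 counts in every sample and background subtraction also lost the call (adjusted p = 0.504, 0.123 and 0.122 from edgeR). So did limma on the authors' log2 values (adjusted p = 0.0812 from limma), which makes 9 of 17 alternatives.

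The upstream sequences of some members are shown as the letters beside which these levels were measured, and their use in pulp was not tested. RefSeq windows of 300 bases, from 250 before to 50 after the transcription start in GRCm38.p6, were matched by symbol for 7 of the 9 genes, and those of Dusp4 and Spry4 were not used here. They were searched on both strands for the cAMP response element TGACGTCA, its short form TGACGT (which is part of it), the AP-1 element as TGACTCA or TGAGTCA, the ETS-type element CCGGAAG, the TATA sequence TATAAA and the CArG box, which binds serum response factor. Capitals mark the matches. The windows of Dusp1 (chr17:26508423-26508722, minus strand), Dusp5 (chr19:53528895-53529194, plus strand) and Spred2 (chr11:19924192-19924491, plus strand) are the 3 with any match, and that of Spry2 (chr14:105896770-105897069, minus strand) belongs to the gene that fell most.
Dusp1: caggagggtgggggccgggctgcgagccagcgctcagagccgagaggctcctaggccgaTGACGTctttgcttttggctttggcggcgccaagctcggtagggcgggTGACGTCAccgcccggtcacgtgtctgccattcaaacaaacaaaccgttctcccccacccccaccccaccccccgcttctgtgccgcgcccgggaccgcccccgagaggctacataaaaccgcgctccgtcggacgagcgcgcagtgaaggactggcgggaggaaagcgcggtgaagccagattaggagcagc
Dusp5: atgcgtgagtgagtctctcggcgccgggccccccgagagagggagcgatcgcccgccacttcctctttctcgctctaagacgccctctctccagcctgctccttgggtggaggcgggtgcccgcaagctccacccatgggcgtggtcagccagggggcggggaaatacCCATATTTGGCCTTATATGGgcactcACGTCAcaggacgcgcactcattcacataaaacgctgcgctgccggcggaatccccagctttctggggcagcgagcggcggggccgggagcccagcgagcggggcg
Spred2: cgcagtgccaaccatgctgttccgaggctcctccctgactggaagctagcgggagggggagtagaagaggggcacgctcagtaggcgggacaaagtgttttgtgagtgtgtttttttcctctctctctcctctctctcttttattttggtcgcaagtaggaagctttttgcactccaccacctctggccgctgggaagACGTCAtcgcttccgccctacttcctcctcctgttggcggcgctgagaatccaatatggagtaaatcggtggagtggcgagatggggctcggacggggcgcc
Spry2: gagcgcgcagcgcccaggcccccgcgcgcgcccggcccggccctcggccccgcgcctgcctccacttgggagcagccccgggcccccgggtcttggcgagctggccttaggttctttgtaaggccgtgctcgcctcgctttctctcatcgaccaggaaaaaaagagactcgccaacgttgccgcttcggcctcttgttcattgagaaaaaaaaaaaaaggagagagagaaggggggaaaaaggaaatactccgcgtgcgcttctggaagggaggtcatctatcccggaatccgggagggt

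The Dusp1 window holds a complete cAMP response element that begins 143 bases before the start and a second short form that begins 191 bases before it. Of 32851 windows of this length, 1.79% hold the complete element and 7.51% the short form. Dusp5 carries CArG boxes side by side, CCATATTTGG beginning 82 bases and CCTTATATGG beginning 72 bases before its start, followed by a short form of the cAMP response element at 56 bases. A CArG box was found in 1.63% of windows. Spred2 has a single short form 52 bases before its start. No AP-1 (5.2% of windows), ETS-type (8.86%) or TATA (13.6%) match was found in the 7 windows, and those of Spry1, Spry2, Dusp6 and Spred1 held none of the searched letters.

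Among the Sprouty genes, Spry1 and Spry2 fell over 2-fold and Spry4 less. Spry2, on chromosome 14 from 105891947 to 105896819, encodes an inhibitor that is itself phosphorylated by receptor kinases. It had the largest change of the 9 genes. WT samples held 362, 309 and 375 normalized counts, against 124, 139 and 90.4 in those of Mmp13-/-. The lowest WT sample held over 2 times the highest Mmp13-/- sample, and the mean in Mmp13-/- was 33.8% of that in WT. The log2 fold change was -1.55 (standard error 0.19, 95% interval -1.98 to -1.12, adjusted p = 0.000231 from edgeR), below which only 1.96% of the genes tested lay.

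Spry1, on chromosome 3 from 37639947 to 37644598, encodes an inhibitor that limits the response to growth factors in developing organs. It had 500 normalized counts in WT sample 2, 648 in sample 4 and 590 in sample 5, against 255, 220 and 237 in Mmp13-/-. Its Mmp13-/- samples were the most alike of the 9 genes (SD 7.33% of the mean), and the log2 fold change was -1.29 (standard error 0.16, 95% interval -1.63 to -0.94, adjusted p = 0.000199 from edgeR). Spry4, an inhibitor that acts on the activation of Raf and is a well-known FGF target, had 266, 300 and 323 normalized counts in WT, against 228, 213 and 193 in Mmp13-/-. The genotypes of Spry4 lay apart without a wide gap, and its log2 fold change was -0.49 (standard error 0.16, 95% interval -0.84 to -0.13, adjusted p = 0.0271 from edgeR). The call for Spry4 was lost on leaving out WT sample 4 or 5 or Mmp13-/- sample 6, with an adjusted p of up to 0.0680 in edgeR. Upper-quartile factors, total counts alone and at least 10 counts in every sample also lost it (adjusted p = 0.121, 0.352 and 0.0764 from edgeR).

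The Spred genes differed from each other. Both products bring the Ras-inactivating protein neurofibromin to the membrane. Spred2, on chromosome 11 from 19924375 to 20024026, had 637, 779 and 635 normalized counts in WT, against 322, 335 and 278 in Mmp13-/-. The genotypes were far apart, and the log2 fold change was -1.13 (standard error 0.15, 95% interval -1.47 to -0.79, adjusted p = 0.000314 from edgeR). Spred1, on chromosome 2 from 117121374 to 117182279, had 1796, 2252 and 1876 normalized counts in WT and 2089, 2525 and 1844 in Mmp13-/-. Its genotypes overlapped, and it did not pass, at a log2 fold change of 0.13 (standard error 0.16, 95% interval -0.24 to 0.49, adjusted p = 0.551 from edgeR).

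The contrast between Spred1 and Spred2 depended on whether the GC content of the transcripts was corrected for. Spred1 has transcripts of 41.5% GC, lower than those of the other members, and only 7.32% of protein-coding genes tested had less. The others ranged from 46.2% for Spry2 to 56.7% for Dusp5. When each library was corrected for GC content, Spred1 turned to a log2 fold change of -0.84 and passed (95% interval -1.25 to -0.43, adjusted p = 0.00664 from edgeR), beside -0.93 for Spred2 (adjusted p = 0.00144 from edgeR). Under this correction 6 of the 9 genes fell, against 20.6% of all genes tested: Dusp1, Dusp6, Spry1, Spry2, Spred1 and Spred2. Dusp4, Dusp5 and Spry4 had log2 fold changes of -0.48, -0.32 and -0.35 and no longer passed (adjusted p = 0.183, 0.196 and 0.0976 from edgeR). Only Dusp1 and Spry2 remained over 2-fold lower, and Spry2 moved further down, to -1.92 (adjusted p = 0.000184 from edgeR). All 9 estimates were below 0 with the correction, and the median was -0.69, beside -0.03 for all genes. The trend with GC content runs between the genotypes, so a difference of the libraries cannot be told apart from genotype. The cause of the trend was not tested.

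**Figure D2:**
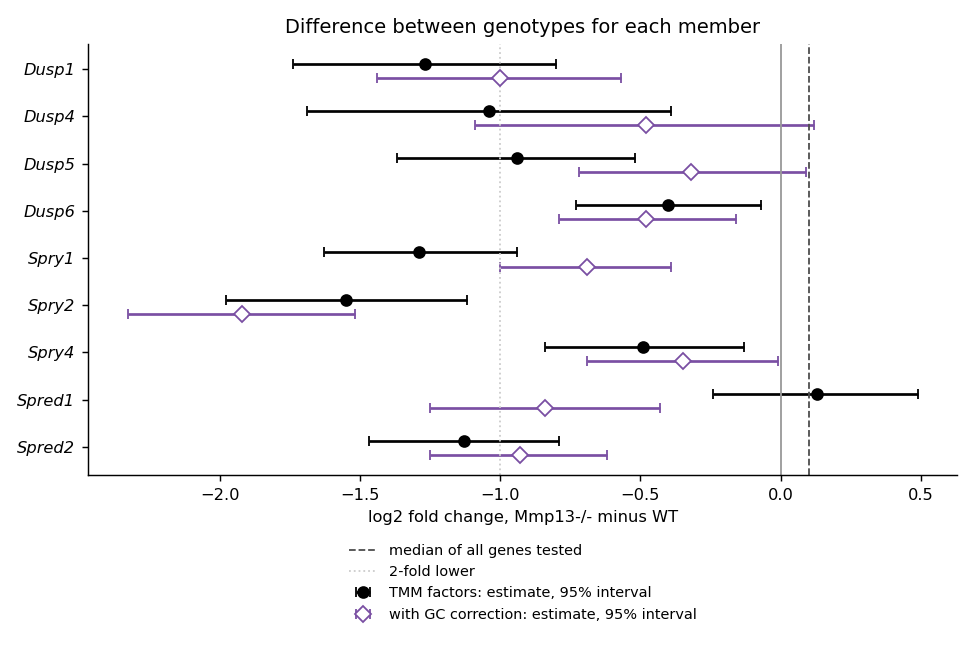
Log2 fold change of Mmp13-/- over WT (horizontal axis) for each feedback gene, with TMM factors (black circles) and with the added GC correction (purple diamonds); bars are 95% intervals, the dashed line is the median of all genes tested and the dotted line is a 2-fold fall. Spred1 moves from 0.13 to -0.84 and Dusp5 from -0.94 to -0.32, whereas Spred2 and Dusp6 move little.

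Levels were also compared between genes, as CPM per kilobase of exon. Here, in log2 CPM and in the marker sums below, counts were scaled by the library size with TMM factors. In WT pulp Dusp1 was the most abundant of the 9 at 22.7 ± 6.17 (SD, n = 3) CPM per kilobase. Spred1 at 10.8 ± 1.33 (SD, n = 3) and Dusp6 at 10.4 ± 0.999 (SD, n = 3) followed, and their ranges overlapped. Spry1, Spry2 and Spred2 came next at 7.37, 6.18 and 5.47, each overlapping its neighbor, then Dusp5 at 4.50, which overlapped neither neighbor, and last Dusp4 at 2.96 and Spry4 at 2.31, whose ranges overlapped. In Mmp13-/- pulp the order changed. Spred1 led at 11.7 ± 1.88 (SD, n = 3), overlapping Dusp1 at 9.38 ± 1.27 (SD, n = 3), which overlapped Dusp6 at 7.88 ± 0.99 (SD, n = 3). The remaining genes lay between 1.46 for Dusp4 and 3.02 for Spry1, each with a range that overlapped that of the next in the order, other than Spry1, which lay above Spred2. The exon lengths behind these values are those of all annotated exons of a gene, whether or not pulp uses them.

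**Figure D3:**
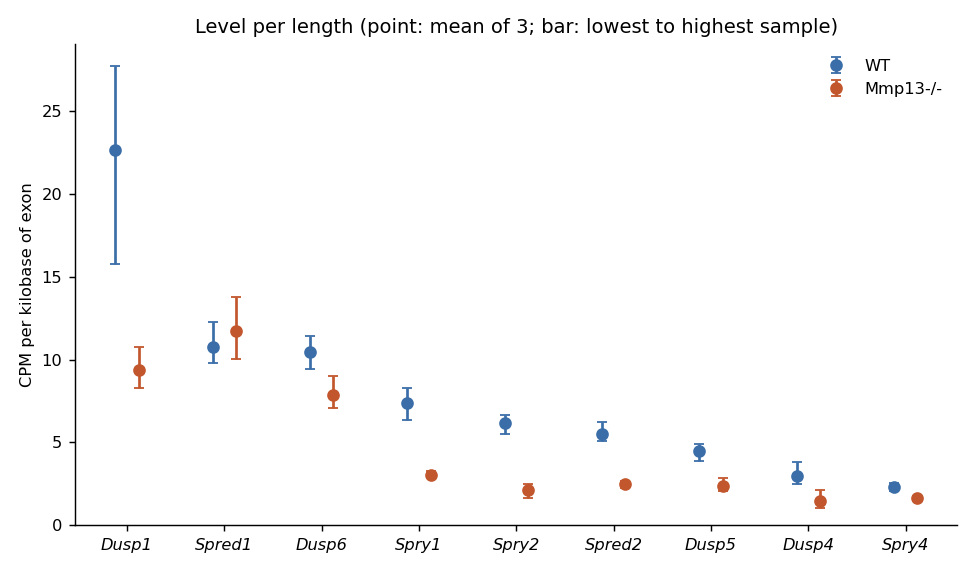
Level per length of each feedback gene (vertical axis, CPM per kilobase of exon, from 0) in WT (blue) and Mmp13-/- (orange); points are means of 3 samples and bars run from the lowest to the highest. Dusp1 leads in WT at 22.7 and Spred1 in Mmp13-/- at 11.7.

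Summed over the family, the Sprouty genes stood at 14.9 to 16.7 CPM per kilobase in WT and at 6.12 to 7.22 in Mmp13-/-. The 4 Dusp genes together stood at 31.7 to 45.6 in WT and 20.5 to 22.1 in Mmp13-/-. For the Spred pair the sums overlapped, at 14.9 to 18.5 and 12.3 to 16.5. The make-up of each family differed as well. Spry4 gave 13.9% to 15.1% of the summed Sprouty level in WT samples and 23.9% to 24.6% in Mmp13-/- samples.

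Ratios between members of 1 library do not depend on its scaling. Of 3 such ratios, chosen after the values were seen, that of Spred2 to Spred1 per kilobase was 0.521, 0.508 and 0.497 in WT and 0.226, 0.195 and 0.222 in Mmp13-/-. From WT to Mmp13-/- the ratio of Spry2 to Spry4 went from 2.70 ± 0.38 to 1.27 ± 0.21 (SD, n = 3 each), and that of Dusp1 to Dusp6 from 2.16 ± 0.49 to 1.21 ± 0.30 (SD, n = 3 each). None of the 3 ratios overlapped between genotypes, and each gave p = 0.1 in a two-sided exact permutation test, the smallest that 3 against 3 samples allow and the same after adjustment over the 3. With the GC correction the difference in the log2 ratio of Spred2 to Spred1 went from -1.25 to -0.09, while that of Spry2 to Spry4 went from -1.10 to -1.58 and that of Dusp1 to Dusp6 from -0.83 to -0.53.

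The phosphatase genes outside the group showed the same direction in part. Of the other 6 MAP kinase phosphatase genes, 4 fell and 2 did not pass. Dusp7, a cytoplasmic ERK phosphatase related to Dusp6, fell from 1828 ± 278 (SD, n = 3) to 848 ± 89.4 (SD, n = 3) normalized counts. Dusp8 and Dusp10, whose products act mainly on JNK and p38, had log2 fold changes of -1.25 and -1.02, and Dusp2, a nuclear phosphatase of immune cells, of -0.76. Dusp9 and Dusp16 had log2 fold changes of 0.06 and 0.14 and did not pass (adjusted p = 0.923 and 0.434 from edgeR). After the GC correction Dusp7, Dusp8 and Dusp10 passed, with log2 fold changes of -0.50, -0.46 and -1.06, and Dusp2 did not.

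Of 6 further genes of Sprouty type or acting at receptors, 3 fell, 1 rose and 2 did not pass. Lrig1, which marks receptors for degradation, fell with a log2 fold change of -1.23 (adjusted p = 0.000133 from edgeR), and its relative Lrig3 fell with -0.63. Spred3, the remaining Spred gene, was at -0.72 (adjusted p = 0.0246 from edgeR) and passed in 3 of the 6 fits with 1 sample left out. Il17rd, also known as Sef, was at -0.38 and Errfi1, an inhibitor of the EGF receptor, at 0.08, and neither passed (adjusted p = 0.0759 and 0.676 from edgeR). Flrt3, a membrane protein that promotes FGF signaling and is induced by it, rose with 1.15 (adjusted p = 0.00922 from edgeR). Lrig1 and Lrig3 also passed after the GC correction, at -0.77 and -0.45, and Spred3 and Flrt3 did not. Spry3 was not analysed here.

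Along the pathway itself, 63 genes of 7 lists were tested, of which 33 fell, 8 rose and 22 did not pass, with a median log2 fold change of -0.51. With the GC correction 22 fell and 2 rose, with total counts alone 14 fell and 6 rose, and with upper-quartile factors 24 fell and 15 rose. Of all 24534 genes tested, 24.3% fell in the main fit, 20.6% with the GC correction, and 3065 and 4618 genes under the latter scalings. The share of each list that fell is to be read beside the 24.3%, which the 2 of 7 genes for Ras proteins and their GTPase activators nearly equal. These lists include the phosphatases and receptor inhibitors just described.

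Of 12 receptor tyrosine kinase genes, 5 fell and 2 rose, and their median of -0.10 was close to that of all genes. Fgfr1 and Fgfr3, receptors for fibroblast growth factors, fell over 2-fold. Fgfr1 went from 20585 ± 3165 to 8570 ± 1008 and Fgfr3 from 4714 ± 230 to 2168 ± 160 normalized counts (SD, n = 3), whereas Fgfr2 stood at 3994 ± 532 and 3847 ± 444 (SD, n = 3) and did not pass (adjusted p = 0.806 from edgeR). Pdgfrb fell with a log2 fold change of -0.83, and Pdgfra rose with 0.54 (adjusted p = 0.0415 from edgeR), a value that passed in 2 of the 6 fits with 1 sample left out. After the GC correction Fgfr1 and Fgfr3 passed at -0.80 and -0.46, no longer over 2-fold, and Pdgfrb and Pdgfra did not pass.

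Of 10 genes for adaptors and Ras activators, 7 fell and none rose, with a median log2 fold change of -0.72. Ptpn11, which encodes the phosphatase SHP2, Grb2, the adaptor that carries SOS to receptors, and Gab1, a docking protein, had the largest changes, -0.98, -0.97 and -0.94, and all 3 passed after the GC correction. Of 7 genes for Ras proteins and Ras GTPase activators, 2 fell, 2 rose and 3 did not pass. Hras and Rasal2 fell with -0.72 and -0.53, and Rasa2 rose with 0.95. Rasal2 passed in 4 of the 6 fits with 1 sample left out. After the correction Hras and Rasa2 no longer passed.

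Among the kinases, both MEK genes fell. Normalized counts of Map2k1 (MEK1) went from 1992 ± 120 to 1199 ± 84.4 (SD, n = 3), and those of Map2k2 (MEK2) from 3185 ± 152 to 1320 ± 150 (SD, n = 3). Their log2 fold changes were -0.73 and -1.27. Mapk3, which encodes ERK1, fell with -0.76 (adjusted p = 0.0015 from edgeR). The largest changes of the list were at the scaffolds, with Ksr1 at -1.75 (adjusted p = 0.000228 from edgeR) and the much less abundant Ksr2 at 1.76 (adjusted p = 0.0138 from edgeR, passing in 5 of the 6 fits with 1 sample left out). Braf rose with 0.87. After the GC correction Map2k1, Map2k2, Ksr1 and Ksr2 passed in the same direction, at -0.62, -0.49, -1.05 and 1.97. Mapk3 and Braf did not pass with it.

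**Figure D4:**
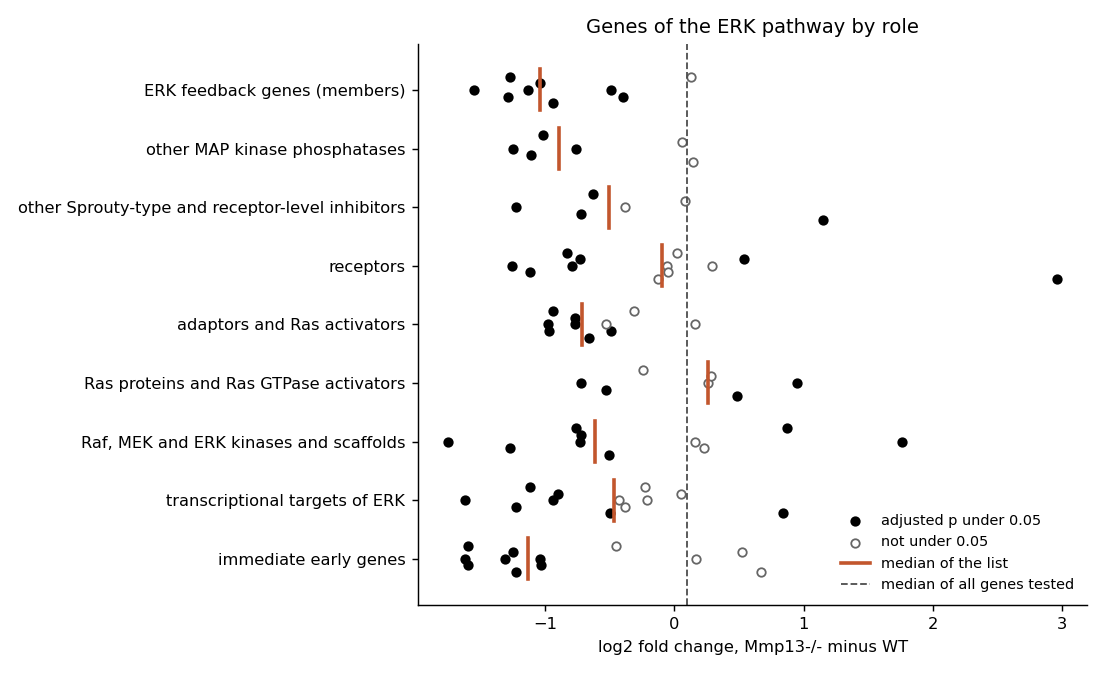
Log2 fold change of Mmp13-/- over WT (horizontal axis) for every tested gene of each list; filled points passed at an adjusted p under 0.05, orange bars are list medians and the dashed line is the median of all genes. The feedback genes have a median of -1.04 and the adaptors one of -0.72, whereas receptor genes lie on both sides with a median of -0.10.

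Other transcriptional targets of ERK were compared with the feedback genes. Of 12, 6 fell and 1 rose, with a median log2 fold change of -0.47. The growth-induced genes Egr1, Fos, Phlda1, Epha2, Myc and Ier3 fell, with log2 fold changes from -1.62 for Egr1 to -0.50 for Ier3. With 1 sample left out, Fos passed in 5 and Ier3 in 3 of the 6 fits. The ETS factors of the PEA3 group, which follow FGF signals closely in many tissues, did not move alike. Etv4 at -0.38 and Etv5 at -0.23 did not pass (adjusted p = 0.192 and 0.282 from edgeR), and Etv1 rose with 0.84 (adjusted p = 0.0109 from edgeR), in 5 of those 6 fits. Ccnd1, the cyclin D1 gene, was at -0.21 and did not pass (adjusted p = 0.327 from edgeR). After the GC correction only Egr1 of the 12 passed (adjusted p = 0.0238 from edgeR).

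Dusp1 belongs to the immediate early genes, which respond to handling of tissue as well as to growth factors. Of 12 further genes of this kind, 8 fell, all over 2-fold, and none rose. Fos, for example, had 378, 623 and 1196 normalized counts in the WT samples in the order 2, 4 and 5. Its counts were 289, 206 and 448 in Mmp13-/- samples 1, 2 and 6, so that the genotypes overlapped. WT sample 2 was also the lowest WT sample and WT sample 5 the highest for Egr1, at 539 and 1282, for Junb, at 1794 and 3547, and for Dusp1 itself. Nr4a1, Ier2, Atf3 and Btg2 had the same order. Egr3 had the opposite order, with 694 in WT sample 2 and 438 in WT sample 5. Jun, Zfp36 and Egr2 were highest in WT sample 4, and Fosb was lowest there. Egr1, Nr4a1 and Junb had the largest changes, -1.62, -1.60 and -1.60 (adjusted p = 0.00271, 0.000127 and 0.000775 from edgeR), and Atf3, Egr2, Fosb and Btg2 did not pass. After the GC correction 6 of the 12 fell, and Fos and Ier2 were the ones that no longer passed. Egr1 and Nr4a1 stayed over 2-fold lower, at -1.07 and -1.02, and Jun, Junb, Egr3 and Zfp36 did not. The part of tissue handling in the values of Dusp1 was not tested.

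The gene whose level followed Dusp6 most closely over the 6 samples was Enah, with a Pearson r of 0.998 on log2 CPM, followed by Zdhhc24 (0.998) and Rad51d (0.997), out of 10794 genes with a mean log2 CPM of at least 3. These are descriptions over 6 points that share their libraries and fall into the 2 genotypes. The Pearson r of Dusp6 was 0.92 with Spred2, 0.882 with Spry4 and 0.203 with Spred1.

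Markers of other cells differed between the genotypes as well. The 6 skeletal muscle markers summed to 40873 to 48501 CPM in WT and to 7440 to 17987 CPM in Mmp13-/-, and 5 of them fell, and the 5 epithelial markers to 1918 to 4069 and 978 to 1632 CPM, of which 2 fell. The 6 neutrophil markers, all higher, summed to 119 to 243 CPM in WT and 652 to 1630 CPM in Mmp13-/-, and the 5 erythroid markers, also all higher, to 541 to 864 and 1601 to 3083 CPM. The ranges were 114 to 118 and 161 to 214 CPM for the 6 macrophage markers, of which 2 rose. They were 229 to 269 and 168 to 234 CPM for the 6 endothelial markers, of which 3 fell and 1 rose, and 78.2 to 277 and 82.5 to 102 CPM for the 5 Schwann cell markers, of which 1 fell. Of the odontoblast markers 3 fell and 4 rose, and their sum, to which the collagen genes gave most, ranged from 54684 to 61357 CPM in WT and from 16727 to 22303 CPM in Mmp13-/-. Of the fibroblast markers 2 fell and 4 rose, with sums of 14664 to 23210 and 9323 to 13028 CPM. No marker was at 0 in every sample. After the GC correction all 6 macrophage markers rose, 1 epithelial marker rose and none fell, and no Schwann cell marker passed. Of the endothelial markers 1 fell and 1 rose, of the odontoblast markers 3 fell and 2 rose, and of the fibroblast markers 1 fell and 3 rose. The counts for muscle, neutrophil and erythroid markers stayed the same. The part of a different cell make-up in the lower levels of the feedback genes was not tested, and it cannot be told apart from genotype in bulk RNA.

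For 3 members an annotated gene on the opposite strand shares exon bases, and the counting is not stated to use strand. Gm42922 shares 710 bases with Spry1 and went from 83.2 ± 18.3 to 38.1 ± 12.5 normalized counts between WT and Mmp13-/- (SD, n = 3 each). A gene known only by a clone name shares 547 bases with Dusp5 and was not analysed here, and Ergic1 shares 11 bases with Dusp1. Reads in these stretches cannot be assigned to 1 of the partners.

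**Figure D5:**
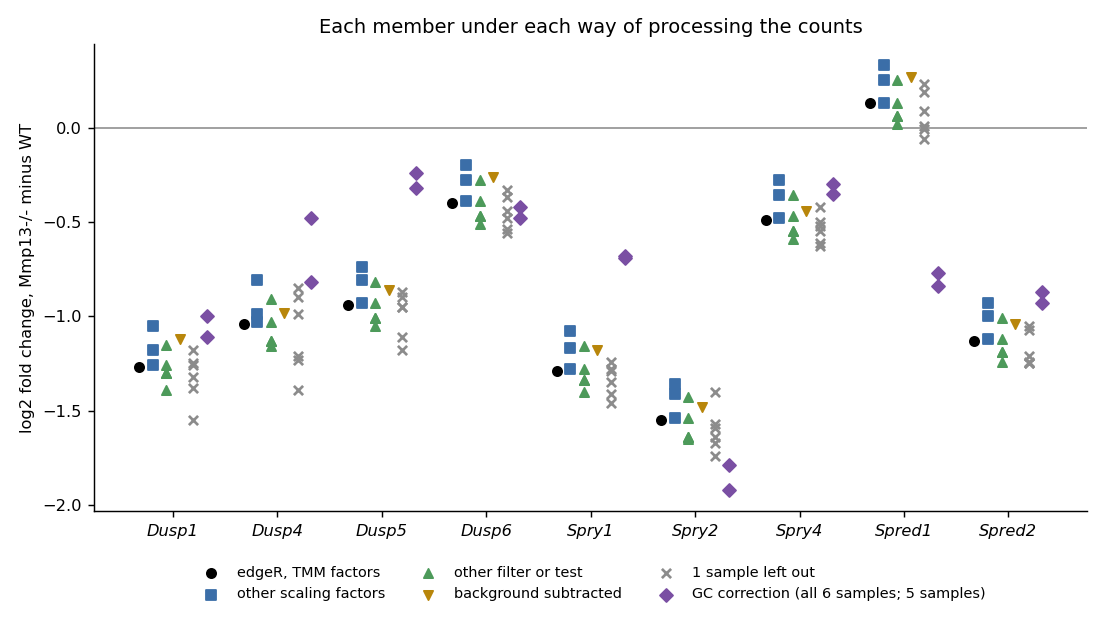
Log2 fold change of each feedback gene (vertical axis) under the main fit (black), other scalings (blue), other filters or tests (green), subtraction of background reads (gold), each sample left out (grey crosses) and the GC correction with 6 or 5 samples (purple). Dusp1, Spry1, Spry2 and Spred2 lie at -0.68 or lower throughout, and Spred1 is the only gene with values on both sides of 0.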

How the data were processed

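RNA-seq was performed on dental pulp of 3 WT and 3 Mmp13-/- mice, grouped by the genotype in the labels. The authors made the deposited table in Strand NGS from aligned reads. Its estimated counts per gene were deposited without normalization, and its log2 values were made by the authors with DESeq-type scaling, a threshold of 1 and centring on each gene's median. Recomputing the log2 values from the counts gave the same numbers to within 2.35e-06. The submitters' processing notes name mm10. The aligner is not given in the sources used here.

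The rounded estimated counts entered edgeR 4.0.16 under R 4.3.3 (quasi-likelihood, TMM factors, low-count filter by genotype, Benjamini-Hochberg adjustment). No p for a gene rests on permutation, since 3 against 3 samples give none under 0.1. Alternatives were other factors and filters, DESeq2 1.42.0, limma 3.58.1 on the log2 values, a gene-by-gene equal-variance test with Storey's q modelled on the study's description, each sample left out, subtraction of a background rate per kilobase taken from 1452 receptor genes, and a GC correction (a loess curve per library, span 0.4, fitted where the mean log2 CPM exceeded 3 and entered as an offset). On simulated data in which few genes differed, edgeR and DESeq2 recovered most 4-fold changes, limma fewer, and the gene-by-gene test almost none. Far more genes passed in the real data. The simulation therefore cannot show how reliable the calls of the gene-by-gene test are here. The largest difference in means of a feedback gene, that of Spry2, was 2.96-fold. Positions, exon lengths and GC content come from GENCODE M21 (GRCm38), matched by identifier for 99.8% of genes. Promoter windows come from RefSeq. A count of 3, taken as the floor, equals 0.139 CPM or less, and such limits cover counting error only. The feedback genes, the pathway and marker lists and the alternatives were chosen with earlier results of these data known, so a list's direction is not independent evidence. The rule named, for each list, the genes that passed with the 3 largest changes in each direction, the core kinases, and all phosphatases and receptor inhibitors. Some genes that the rule names are not reported here. Further pathway genes, such as Fgfr2, Etv4, Epha2 and Ccnd1, were named after their values were seen.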

Additional observations from a re-analysis of the deposited data

How the results depend on the processing

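No paired analysis was possible because the genotypes share only replicate number 2. Of 153 comparisons of a feedback gene between the main fit and 1 of 17 alternatives, 127 kept their direction and side of the threshold, 22 lost the call and 4 reversed. The 4 reversals all concerned Spred1: -0.01 without WT sample 2, -0.06 without Mmp13-/- sample 2 (and up to 0.23 with another sample left out), -0.84 with the GC correction and -0.77 with that correction and Mmp13-/- sample 6 left out, a combination chosen after seeing the data. Dusp1, Spry1, Spry2 and Spred2 passed under all 17. Of the 9 feedback genes, 5 passed with upper-quartile factors, 3 of them over 2-fold, against 8 and 5 in the main fit. With the GC correction, and with it and sample 6 left out, 2 were over 2-fold. When single samples were left out, 5 to 8 passed, 4 to 6 of them over 2-fold, and 5 passed without WT sample 4. Pathway genes that passed numbered 41, and 20 with total counts alone, 24 with the GC correction and 25 with it and sample 6 left out, of which 9 and 6 were over 2-fold. Of all genes tested, 12665 passed and 7381 of them over 2-fold. The numbers were 19292 and 14325 without a filter and 22979 and 15407 by the gene-by-gene test, both over more genes. That test was modelled on the study's description and is not a repeat of its calls. Genes over 2-fold numbered 4666 with at least 10 counts in every sample, 4848 with the GC correction and 4463 with it and sample 6 left out. For the losses under other scalings and the GC correction the cause was not tested. The lowest count of a feedback gene in a sample was 57.7, for Spry2 in Mmp13-/- sample 6, and depth limits the precision of such low values.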
